A study of Homo sapiens with 4 samples.

Results

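Across 4 arrays, 10 genes of the osteoblast lineage were followed across 2 human osteosarcoma lines with and without OGE. They were taken by gene symbol from the platform annotation and make up 10 of the 18417 genes measured. They are the transcription factors RUNX2, SP7, DLX5 and MSX2, the matrix and mineral genes ALPL, SPP1, IBSP and SPARC, the decoy receptor TNFRSF11B and the hormone receptor PTH1R. Each was read by 1 probe set, and every probe set was kept, whatever its level. The groups were U2-OS cells with 600 μg/mL OGE, U2-OS cells with 0 μg/mL, HOS cells with 600 μg/mL and HOS cells with 0 μg/mL, all for 24 h, with 1 array each. U2-OS and HOS are established lines grown from human bone tumours, and each stands for 1 line only. The labels do not spell out OGE or say whether the arrays came from separate cultures.

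Osteoblasts are the cells that lay down bone. RUNX2 starts the lineage together with its partner CBFB, and SP7 acts after RUNX2. The homeobox factors DLX5 and MSX2 act around both, with DLX5 favouring and MSX2 often holding back maturation. Maturing cells make alkaline phosphatase (ALPL) and then the matrix proteins osteopontin (SPP1), bone sialoprotein (IBSP) and osteonectin (SPARC). They also answer parathyroid hormone through PTH1R and restrain osteoclasts through osteoprotegerin (TNFRSF11B), which traps the ligand RANKL.

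Promoter windows from RefSeq (GRCh38.p14) were found for 7 of the 10 genes. DLX5, SP7 and TNFRSF11B had no entry. Each window runs from 250 bases before to 50 bases after an annotated start. ALPL has 3 windows, RUNX2 and PTH1R 2 each, and the others 1. The windows were searched on both strands for the RUNX core ACCACA or ACCGCA, for the homeobox core TAATTA or TAATTG, and for the GC box GGGCGG. The windows below belong to the 3 genes whose OGE differences are described most closely and to SPP1, a classical RUNX2 target. Capitals mark the RUNX core in RUNX2, SPARC and SPP1 and the homeobox core in MSX2.
RUNX2, upstream start, chr6:45328080-45328379, plus strand: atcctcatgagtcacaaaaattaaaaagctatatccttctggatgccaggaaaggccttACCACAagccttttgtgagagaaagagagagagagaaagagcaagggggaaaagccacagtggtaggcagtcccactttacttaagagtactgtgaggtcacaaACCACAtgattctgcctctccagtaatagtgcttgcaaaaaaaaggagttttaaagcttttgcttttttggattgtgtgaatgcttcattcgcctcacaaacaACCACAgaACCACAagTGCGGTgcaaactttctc
SPARC, chr5:151686866-151687165, minus strand: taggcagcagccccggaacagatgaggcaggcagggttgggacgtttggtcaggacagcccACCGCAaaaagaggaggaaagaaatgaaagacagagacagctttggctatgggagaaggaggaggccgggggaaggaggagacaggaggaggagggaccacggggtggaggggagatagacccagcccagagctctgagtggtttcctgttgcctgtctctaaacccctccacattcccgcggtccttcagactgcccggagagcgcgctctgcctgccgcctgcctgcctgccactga
SPP1, chr4:87975464-87975763, plus strand: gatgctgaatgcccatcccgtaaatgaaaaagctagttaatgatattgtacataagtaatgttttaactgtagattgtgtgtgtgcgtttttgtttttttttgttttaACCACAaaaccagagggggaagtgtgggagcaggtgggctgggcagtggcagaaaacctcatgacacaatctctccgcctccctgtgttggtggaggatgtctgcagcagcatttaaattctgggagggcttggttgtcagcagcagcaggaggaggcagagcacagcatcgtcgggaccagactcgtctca
MSX2, chr5:174724332-174724631, plus strand: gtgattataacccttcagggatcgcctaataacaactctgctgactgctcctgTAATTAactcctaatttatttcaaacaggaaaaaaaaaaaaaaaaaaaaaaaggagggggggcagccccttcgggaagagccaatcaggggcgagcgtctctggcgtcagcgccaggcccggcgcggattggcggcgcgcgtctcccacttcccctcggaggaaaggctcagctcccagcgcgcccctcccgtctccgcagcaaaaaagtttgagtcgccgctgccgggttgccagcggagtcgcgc

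The upstream RUNX2 window held 5 RUNX cores, the first 191 bases before the start and the last 32 bases after it. Of 35116 windows of 300 bases in the table, 19.6% held at least 1 such core and 4 windows held 5 or more. SPARC held 1 core, 189 bases before its start, and SPP1 held 1 core, 142 bases before its start. ALPL held 1 core in 1 of its 3 windows. The downstream RUNX2 window, IBSP, MSX2 and both PTH1R windows held none, so 4 of the 11 windows had a RUNX core. MSX2 held 1 homeobox core, 197 bases before its start, and 3 of the 11 windows had such a core, against 11.4% of all windows. A GC box was found in 3 of the 11, in ALPL, PTH1R and the downstream RUNX2 window, against 45.0% of all windows. A match describes these letters only. The single RUNX2 probe set does not separate transcripts from the upstream start from those of the downstream one.

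The medians of the arrays, over 33297 probe sets each, ran from 3.58 to 3.62 in log2 units, and OGE and control arrays correlated at 0.968 in U2-OS and 0.980 in HOS. A difference was called by size when it reached 1 on the log2 scale, which is 2-fold, with the higher value at or above its array's median. With 1 array per group no p-value exists within a line. For the OGE difference across the lines, limma was fitted to all genes with a term for the line and one for OGE. The fit has 1 residual degree of freedom, which is the difference between the OGE differences of the 2 lines. Each SE combines it with a spread estimated over all genes. The p-values thus measure no spread between repeat cultures or arrays, and the spread among these 4 arrays may be technical. An array of cultured cells cannot tell fewer cells making a transcript from less of it per cell.

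Of the 10 genes, 5 stood at or above the array median on at least 1 array, namely RUNX2, SP7, MSX2, ALPL and SPARC. DLX5, SPP1, IBSP, TNFRSF11B and PTH1R stayed below it on all 4 arrays, as did 34.7% of all genes. The array median is a floor for calls and not a test of presence, and levels of different probe sets cannot be compared as amounts of RNA. Other markers fixed for the osteoblast label were the type I collagen chains. COL1A1 had 7.71 with OGE and 9.46 without it in U2-OS, and 9.07 with OGE and 10.01 without it in HOS, all above the median. COL1A2 had 4.38 with OGE and 4.46 without it in U2-OS, and 7.53 with OGE and 8.78 without it in HOS. BGLAP, the osteocalcin gene, was not analysed here because its probe set carries several symbols. As to the osteoblast label, RUNX2, SP7, MSX2, SPARC and type I collagen were above the median on all arrays. DLX5, SPP1, IBSP, TNFRSF11B and PTH1R were below it on all arrays. Among markers of other cell types, SOX9, COL2A1, MYOG, DES, CEBPA and PLIN1 were also at or above it on all arrays. Below it on all arrays were 4 of 11 cartilage, 4 of 8 fat cell and 5 of 8 skeletal muscle markers. This level alone thus does not set the cell type.

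**Figure D1:**
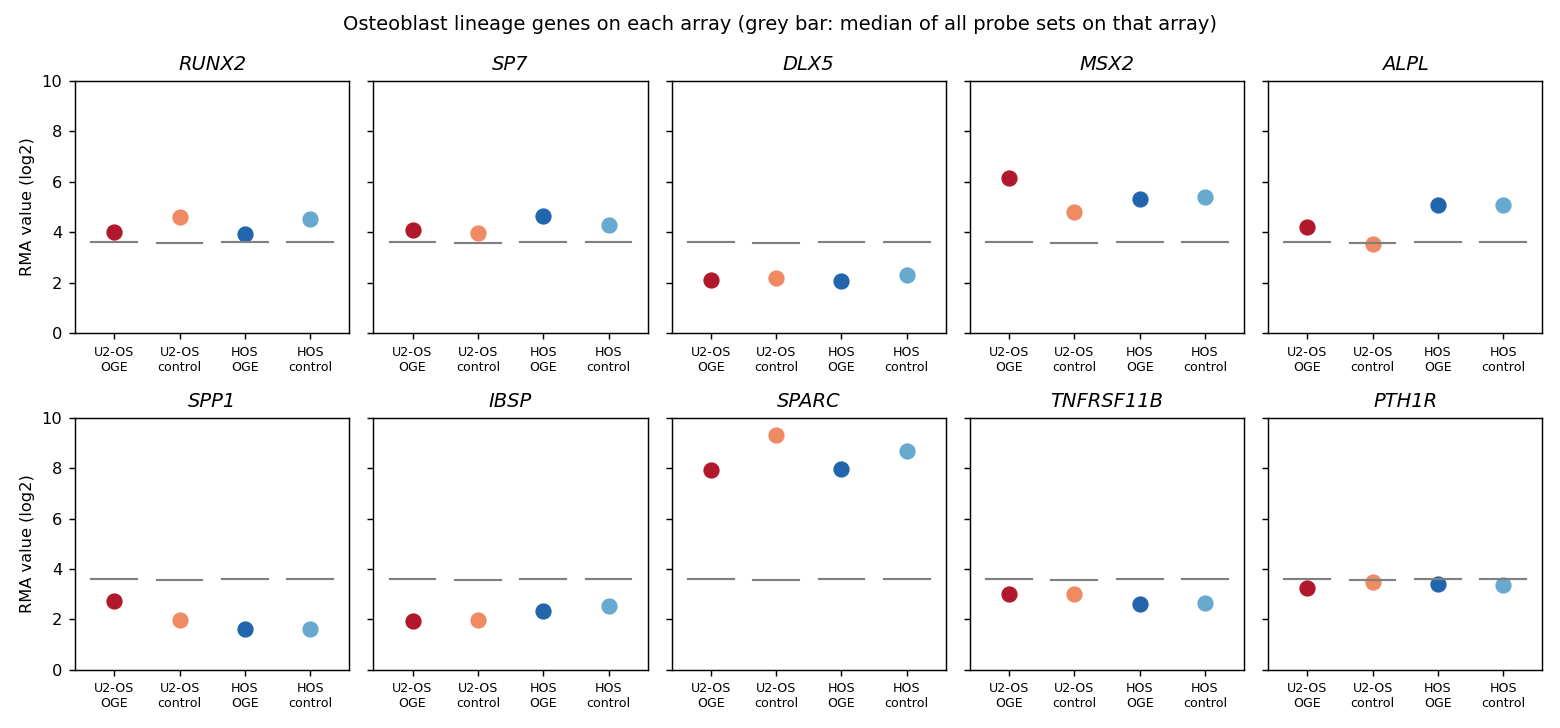
Log2 RMA value (y axis) of each osteoblast lineage gene on the 4 arrays (x axis), 1 point per array, with a grey bar at the median of all probe sets on that array. SPARC lies between 7.93 and 9.33, and DLX5, SPP1, IBSP, TNFRSF11B and PTH1R lie under the grey bars throughout.

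The OGE comparison asks how the OGE-treated cells differ from untreated cells of the same line. In U2-OS, MSX2 was higher and SPARC lower by size with OGE, 2 of the 10 genes, against 6.76% of all genes called in either direction. In HOS none of the 10 was called, against 2.39% of all genes. Higher calls in U2-OS made up 1.84% of all genes and lower calls 4.92%. Over all 10 the median OGE difference was -0.035 in U2-OS and -0.045 in HOS, where all genes had 0.03 and 0.02.

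RUNX2 had 4.01 with OGE and 4.60 without it in U2-OS, and 3.94 with OGE and 4.54 without it in HOS. Both OGE arrays thus lay below both control arrays, and the lines hardly differed from each other. The OGE difference was -0.59 in U2-OS and -0.60 in HOS, about 1.51-fold and 1.52-fold lower, short of the size threshold. In limma the mean OGE difference was -0.60 ± 0.17 (SE, 4 arrays), with an adjusted p of 0.273 over all genes. The difference of the lines' OGE differences was 0.01, the smallest step the values allow. The SE of RUNX2 thus came almost wholly from the spread over all genes.

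SP7, the zinc finger factor that follows RUNX2, had 4.08 with OGE and 3.98 without it in U2-OS, and 4.66 with OGE and 4.28 without it in HOS. Both HOS arrays lay above both U2-OS arrays. The OGE differences of 0.10 and 0.38 were not called. DLX5 lay between 2.06 and 2.32 on the 4 arrays, a range of 0.26 below the median.

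MSX2 had 6.14 with OGE and 4.81 without it in U2-OS, and 5.32 with OGE and 5.38 without it in HOS. The U2-OS array with OGE was the highest of the 4 and the untreated U2-OS array the lowest. The OGE difference was 1.33 in U2-OS, 2.51-fold higher, and -0.06 in HOS. The response in U2-OS minus that in HOS was 1.39. Of all genes, 4.69% had responses at least 1 apart, and MSX2 was the 1 such gene among the 10. With no replicate arrays the difference between the responses was not tested. The mean OGE difference was 0.64 ± 0.37 (SE, 4 arrays) in limma, with an adjusted p of 0.503.

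Among the matrix and mineral genes, SPARC, a collagen- and calcium-binding protein, had 7.93 with OGE and 9.33 without it in U2-OS, and 7.95 with OGE and 8.68 without it in HOS. The 2 OGE arrays lay 0.02 apart and below both control arrays. SPARC was lower by size in U2-OS, with a difference of -1.40 or 2.64-fold, and the difference in HOS was -0.73 or 1.66-fold lower. In limma the mean difference was -1.07 ± 0.23 (SE, 4 arrays), with an adjusted p of 0.239.

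ALPL, the phosphatase that frees phosphate for mineral, had 4.19 with OGE and 3.53 without it in U2-OS, and 5.08 on both HOS arrays. The untreated U2-OS array stood apart as the lowest and the only one below its median. The OGE difference was 0.66 in U2-OS and 0.00 in HOS, and neither was called. SPP1, an acidic adhesion protein of the bone matrix, had 2.71 with OGE and 1.97 without it in U2-OS, and 1.62 with OGE and 1.63 without it in HOS. Its OGE difference in U2-OS was 0.74, on values below the median, where RMA compresses differences. IBSP, which binds hydroxyapatite, had 1.94 with OGE and 1.99 without it in U2-OS, and 2.34 with OGE and 2.51 without it in HOS. Both U2-OS arrays lay below both HOS arrays.

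The 2 signalling genes, both below the median, had small differences. TNFRSF11B had 3.0 with OGE and 3.02 without it in U2-OS, and 2.61 with OGE and 2.64 without it in HOS. The differences with OGE were -0.02 and -0.03. PTH1R had 3.26 with OGE and 3.47 without it in U2-OS, and 3.42 with OGE and 3.38 without it in HOS, a range of 0.21 over the arrays.

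**Figure D2:**
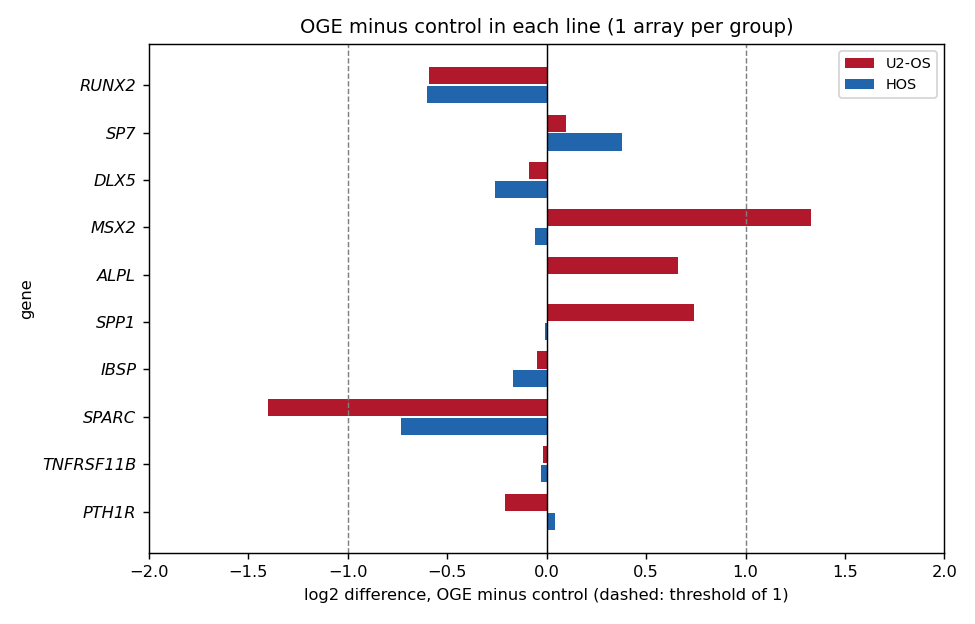
Log2 difference, OGE minus control (x axis), of each gene (y axis) in U2-OS and in HOS, 1 array per group and no error bars, with dashed lines at the size threshold. MSX2 at 1.33 and SPARC at -1.40 in U2-OS pass it, and the RUNX2 bars of -0.59 and -0.60 match in length.

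Across the lines, limma called 0 of the 10 genes for OGE and 0% of all genes. At an unadjusted p under 0.05 in limma there were 2615 genes, 14.2% of all, with RUNX2 and SPARC among them. By sign alone, RUNX2, DLX5, IBSP, SPARC and TNFRSF11B had values below 0 in both lines, 5 of 10, against 27.3% of all genes. For TNFRSF11B, IBSP and DLX5 the differences were no larger than 0.26.

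**Figure D3:**
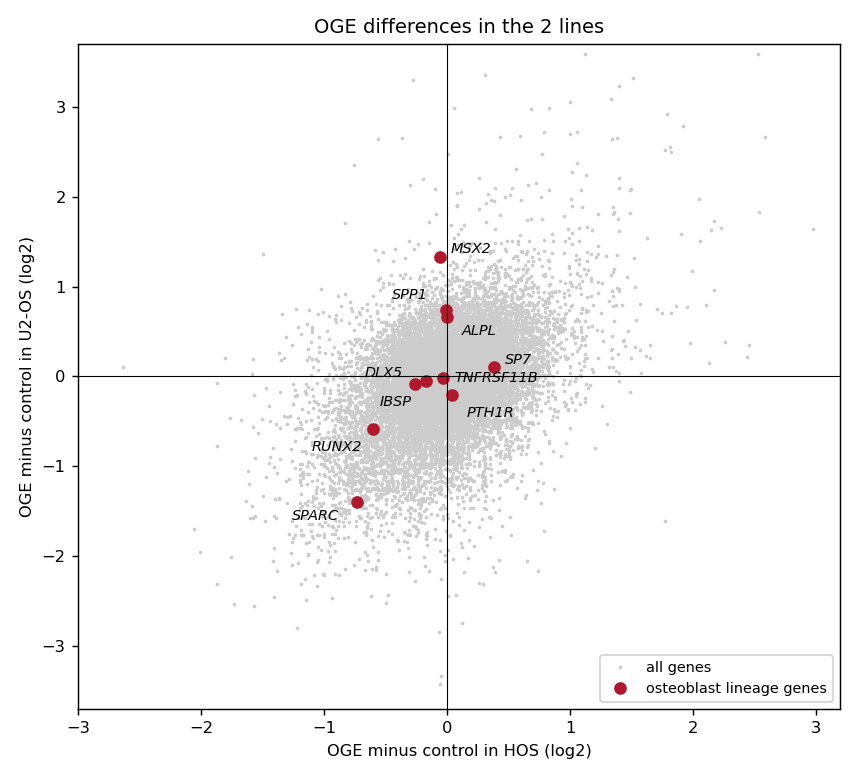
OGE minus control on the log2 scale in HOS (x axis) and U2-OS (y axis), with a grey point for each of 18417 genes and red points for the osteoblast lineage genes; 8 genes lie outside the axes. RUNX2 and SPARC sit in the lower left, MSX2 lies near 0 on the HOS axis at 1.33 in U2-OS, and most of the others are near the centre.

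The comparison of the lines asks which of these genes set U2-OS apart from HOS, with and without OGE. None of the 10 was called by size in both OGE states, against 3.71% of all genes. ALPL was called in untreated cells, 2.93-fold lower in U2-OS with a difference of -1.55. There 8.76% of all genes were called in either direction and 3.56% as lower. With OGE its difference was -0.89, below the threshold, and the change between the states was not tested. In limma the mean difference of ALPL was -1.22 ± 0.23 (SE, 4 arrays), with an adjusted p of 0.0802, and 1.92% of all genes passed. ALPL passed limma at 0.05 under 4 of the 6 alternatives, with adjusted p from 0.0154 to 0.0457, but not with the mean of probe sets or without OGE as a term. At an unadjusted p under 0.05 in limma stood ALPL, SPP1 and IBSP, 3 of the 10, against 20.7% of all genes.

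With OGE, 6.94% of all genes were called between the lines and none of the 10. SPP1 differed by 1.09 with OGE and 0.34 without it, with U2-OS higher, but stayed below the floor. SP7 differed by -0.58 with OGE and -0.30 without it, and IBSP by -0.40 and -0.52. TNFRSF11B differed by 0.39 and 0.38, a nearly equal step in both states. RUNX2 differed by 0.07 with OGE and 0.06 without it.

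Of the genes at or above the floor, MSX2 and SPARC had the lines in a different order in the 2 OGE states. MSX2 differed by 0.82 with OGE and by -0.57 without it. SPARC differed by -0.02 with OGE and 0.65 without it. The value with OGE became 0.14 after quantile normalization or cyclic loess, so its sign did not hold.

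**Figure D4:**
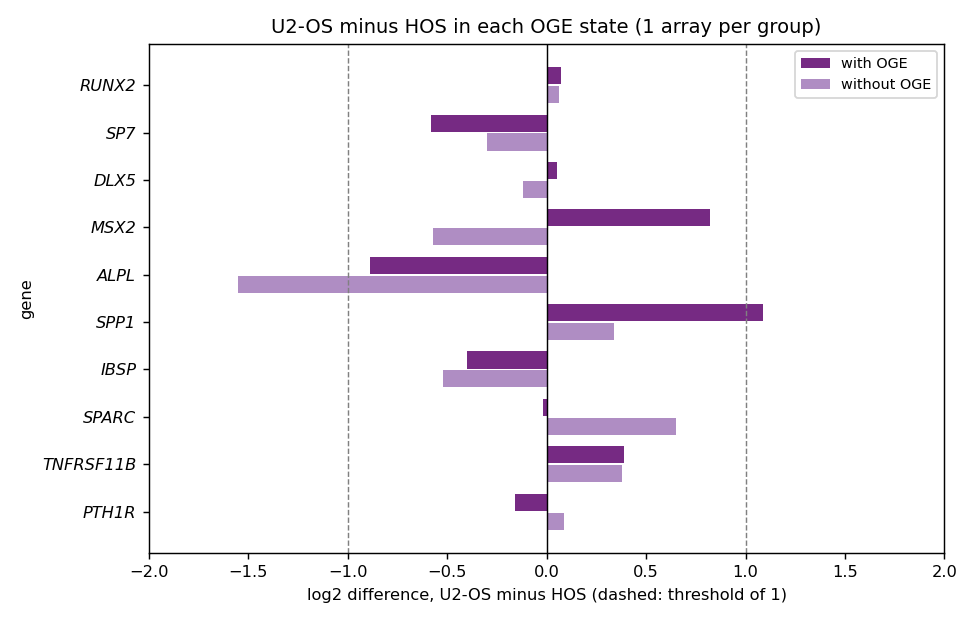
Log2 difference, U2-OS minus HOS (x axis), of each gene (y axis) with OGE and without OGE, 1 array per group and no error bars, with dashed lines at the size threshold. ALPL without OGE, at -1.55, and SPP1 with OGE, at 1.09, reach the threshold, the second on values below the array median.

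Genes with profiles like those of MSX2, ALPL and SPARC were sought over the 4 arrays, since these 3 had a range of at least 1 and reached the floor. Among 3729 genes with such a range and level, likeness was the root-mean-square distance between values centred on their own mean. For SPARC the closest were CDK1, at 0.025, IFT80, at 0.038, and MFN1, at 0.060. CDK1, the mitotic kinase, had 3.91 with OGE and 5.26 without it in U2-OS, and 3.86 with OGE and 4.62 without it in HOS. For MSX2 they were SIAH2, at 0.073, CD55, at 0.091, and BEGAIN, at 0.095. SIAH2, a ubiquitin ligase, had OGE differences of 1.49 in U2-OS and -0.15 in HOS. For ALPL they were ARHGAP45, at 0.029, TARS2, at 0.041, and PIGL, at 0.066. With only 4 arrays such likeness is a description.

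Relatives and partners of the factors gave 1 call by size with OGE among 16 measured genes. Of all genes, 6.76% were called in U2-OS and 2.39% in HOS. BHLHE40, a basic helix-loop-helix repressor, was higher in U2-OS, at 9.16 with OGE and 6.44 without it, and had 6.01 with OGE and 5.22 without it in HOS. CBFB, the RUNX partner, had 6.91 with OGE and 7.83 without it in U2-OS, and 6.75 with OGE and 7.52 without it in HOS. Its differences of -0.92 and -0.77 had the sign of those of RUNX2 and were not called, with an adjusted p of 0.229 in limma. DLX1 and DLX2 had OGE differences of -0.04 and 0.09 in U2-OS, and 0.51 and 0.46 in HOS. Medians of the list were 0.24 in U2-OS and 0.14 in HOS. Between the lines, LEF1, a WNT-pathway factor, was higher in U2-OS by 1.90 with OGE and 2.38 without it, with an adjusted p of 0.0399 in limma. BHLHE40 was also higher in U2-OS by size in both states, by 3.15 with OGE and 1.22 without it. Its adjusted p in limma was 0.102. Of all genes, 3.71% were called by size between the lines in both states and 1.92% passed limma. TWIST2, a repressor of osteoblast maturation, was lower in U2-OS by size without OGE, with -1.41, and had -0.57 with OGE. Lower calls between the untreated lines made up 3.56% of all genes.

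Of 19 measured bone matrix and mineral genes, 3 were lower by size with OGE in U2-OS and 1 in HOS, and none was higher. In U2-OS these were COL1A1 with -1.75, the adhesion protein THBS1 with -1.63 and the osteoblast cadherin CDH11 with -1.31. In HOS it was COL1A2 with -1.25. Lower calls made up 4.92% of all genes in U2-OS and 1.34% in HOS. Higher calls in U2-OS made up 1.84% of all genes, so their absence here does not set the list apart. The list's medians were -0.02 and -0.07. Between the lines, TNC and THBS1 were higher in U2-OS by size in both states, and COL1A2, BGN and the phosphate transporter SLC20A2 were lower. In limma TNC, COL1A2 and BGN passed, with adjusted p of 0.0265, 0.0355 and 0.0434. Of all genes, 3.71% were called by size between the lines in both states and 1.92% passed limma.

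Of the 8 osteocyte and other genes of the SPP1 family, 5 stayed below the median on all arrays, against 34.7% of all genes. None was called for OGE, against 6.76% of all genes in U2-OS and 2.39% in HOS. None was called between the lines either, against 6.94% of all genes with OGE and 8.76% without it. DMP1, MEPE and DSPP, relatives of SPP1 and IBSP, were among the 5 below the median. SOST, an osteocyte gene, was above it on all 4 arrays, between 4.43 and 4.81. PDPN, a membrane glycoprotein of early osteocytes, had the largest OGE difference in HOS of those at or above the floor, with -0.74. It had -0.39 in U2-OS.

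Among 6 genes of osteoclast coupling, SEMA3A was lower by size in U2-OS, with 3.93 with OGE and 5.52 without it. Of all genes, 4.92% were lower by size in U2-OS and 1.34% in HOS. TNFSF11, which encodes the ligand that TNFRSF11B traps, had 2.65 with OGE and 2.20 without it in U2-OS, and 2.43 on both HOS arrays. Between the lines, SEMA3A was higher in U2-OS by size in both states, by 1.17 with OGE and 2.73 without it, with an adjusted p of 0.0927 in limma. The ephrin EFNB2 was lower in U2-OS than in HOS, also by size in both states, with -2.49 with OGE and -2.17 without it. Its adjusted p in limma was 0.0303. Of all genes, 3.71% were called by size between the lines in both states and 1.92% passed limma. Among 15 genes around the PTH receptor and cyclic AMP, the kinase subunit PRKACB was lower by size in U2-OS with -1.12. The regulatory subunit PRKAR1A was lower by size in HOS with -1.03 and had -0.97 in U2-OS. The shares of all genes to set beside these calls are again 4.92% in U2-OS and 1.34% in HOS.

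Among 13 genes of BMP signal transduction, which acts above RUNX2, SP7, DLX5 and MSX2, 3 were lower by size with OGE in U2-OS and none in HOS. Of all genes, 4.92% were lower in U2-OS and 1.34% in HOS. The 3 genes were the receptor BMPR2 with -1.24, SMAD4 with -1.06 and the BMP target ID1 with -1.06. The list's median difference was -0.42 in U2-OS and 0.12 in HOS. SMAD4, SMAD7, ID1 and ID3 were higher in U2-OS than in HOS by size in both states, where 3.71% of all genes were called in either direction. SMAD7 and ID3 passed limma, with adjusted p of 0.0488 and 0.0464, as did 1.92% of all genes.

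**Figure D5:**
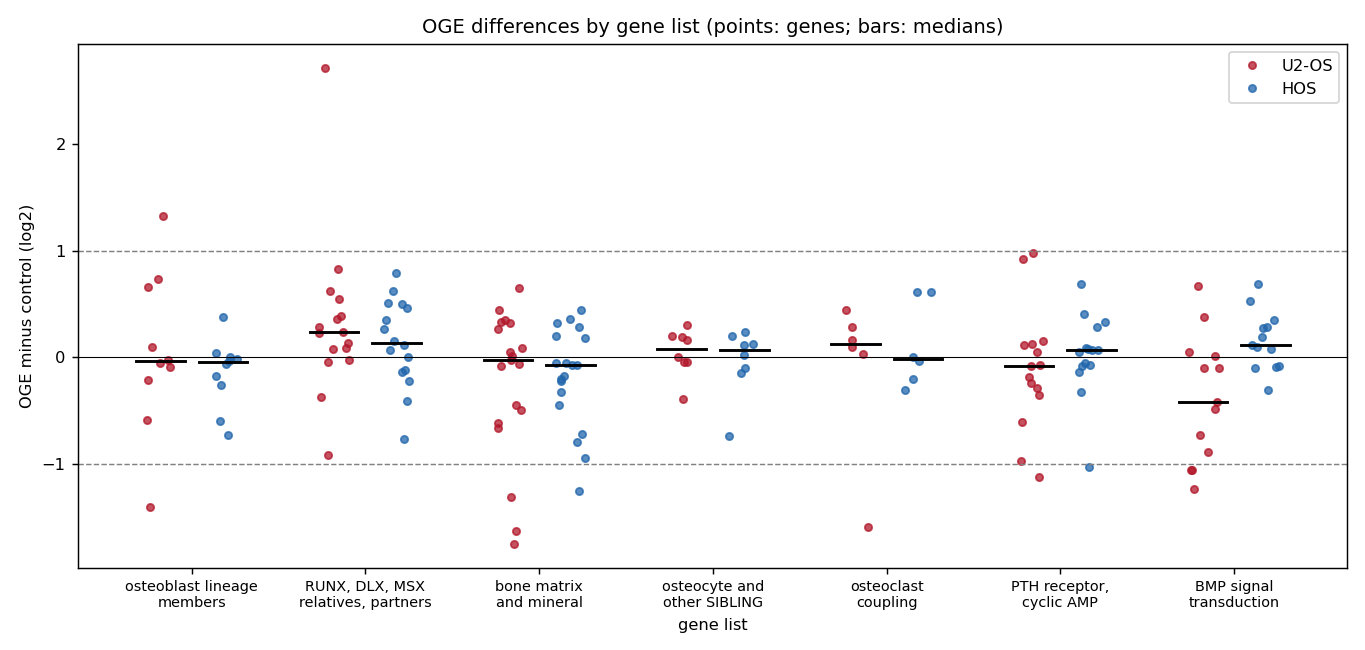
OGE minus control on the log2 scale (y axis) for each gene of the osteoblast lineage and 6 related lists (x axis), red for U2-OS and blue for HOS, with black bars at list medians and dashed lines at the size threshold. BHLHE40 at 2.72 is the highest point, COL1A1 at -1.75 the lowest, and the BMP list has a median of -0.42 in U2-OS and 0.12 in HOS.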

How the data were processed

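Total RNA of 4 samples was hybridised to 4 single-colour arrays. The authors deposited log2 values from RMA, a method named without a version, per the submitters' processing notes. RMA subtracts background, equalises the arrays and summarises probes, and it compresses low signals. The log base was read from the value range. The probe annotation of 2016 gives 1 gene symbol for 19460 probe sets, of which 19429 were matched by gene ID to RefSeq (GRCh38.p14). Several symbols apply to 1754 and none to 12083. The highest-mean probe set stood for each of 18417 genes. R 4.3.3 and limma 3.58.1 were used, with Benjamini-Hochberg adjustment over all genes and a threshold of 0.05. The genes and lists were chosen with earlier results of these data known. All 10 genes are described. Of each other list, up to 4 genes called by size are named in a comparison. Where none was called, those at or above the floor with the largest difference are named for some lists and comparisons and not for others. TNFSF11, the type I collagens and the sialoprotein relatives were added for their link to a member. SOX9, FABP4, ADIPOQ and PTPRC were added as defining markers of other cell types. COL2A1, MYOG, DES, CEBPA, PLIN1, TYROBP and SOST were added as markers at or above the median on all arrays. Genes alike in profile are the closest 3 for each member with a range of at least 1. Alternatives covered normalization, probe set choice, thresholds, floors and the limma model. Depth does not apply to arrays, and the number of arrays limits the precision.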

Additional observations from a re-analysis of the deposited data

Results flagged for a closer look

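With OGE, 3 genes had differences of opposite sign in the lines. MSX2 had 1.33 in U2-OS and -0.06 in HOS, a response difference of 1.39. SPP1 had 0.74 in U2-OS and -0.01 in HOS, a response difference of 0.75. PTH1R had -0.21 in U2-OS and 0.04 in HOS, a response difference of -0.25. The HOS differences of these 3 genes are no larger than 0.06. Of all 18417 genes, 5033 had OGE differences below 0 in both lines and 6069 above 0 in both. The remaining genes had no shared sign, so a lack of it is common. It does not set these 3 genes apart.

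Between the lines, 4 genes had differences of opposite sign in the OGE states. MSX2 had 0.82 with OGE and -0.57 without it, SPARC -0.02 with OGE and 0.65 without it, DLX5 0.05 with OGE and -0.12 without it, and PTH1R -0.16 with OGE and 0.09 without it. With OGE minus without, these differ by 1.39, -0.67, 0.17 and -0.25. None of these differences between groups was tested, since each group has 1 array. The share of all genes with opposite signs in the OGE states was not counted, so these 4 genes have no background to be set against.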

How the results depend on the processing

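No called value of the 10 genes reversed under any alternative run. Only quantile normalization and cyclic loess could reverse one, since the other alternatives leave the differences of these genes unchanged. Of 390 alternative values of single genes, 374 kept their side of the threshold, 12 gained a call and 4 lost one. The 374 include values that could not move, such as those by size under the mean of probe sets. The 2 OGE calls by size in U2-OS, MSX2 and SPARC, kept their calls under quantile normalization, cyclic loess and a floor at the 75th percentile. The mean of probe sets and no floor could not remove them. Each gene has 1 probe set, and a floor can only withhold calls. At 1.5-fold, 2 genes were called with OGE in HOS, 4 in U2-OS and 1 between the lines in both states. At 3-fold, 0 were called in U2-OS. Over all genes these counts were 1939, 3296 and 1774 at 1.5-fold and 48, 293 and 206 at 3-fold, against 440, 1245 and 683, which follows from the threshold itself. With a floor at the 75th percentile, 445 of all genes were called by size between the lines in both OGE states. The ALPL call between untreated lines was lost at 3-fold and with that floor. Between the lines limma called 1 of the 10 genes, ALPL, after quantile normalization, after cyclic loess, with trend and robust moderation, and on genes at or above the median, and 0 otherwise. Over all genes it called 1766, 1326, 1309 and 749 in these 4 settings and 131 without OGE as a term, against 354; the cause was not tested. For OGE it called 0 of the 10 in each setting and 272 genes after quantile normalization, 1 with trend and robust moderation and 0 in the other settings. The SPARC difference between the lines with OGE, -0.02 as deposited, turned to 0.14 with both quantile normalization and cyclic loess. Within a line no paired test was possible, because each group has 1 array and the labels give no replicate numbers. Across the lines, the limma fit with cell line as a term sets OGE against control within each line.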

Other observations

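Markers of neighbouring lineages were measured on the same arrays. Of 11 cartilage markers, COL11A1 and HAPLN1 were lower by size with OGE in U2-OS and none was called in HOS. Of all genes, 4.92% were lower by size in U2-OS and 2.39% were called in HOS. HAPLN1, a link protein of cartilage matrix, had 5.17 with OGE and 7.91 without it in U2-OS, and 2.49 with OGE and 2.37 without it in HOS. SOX9, the master factor of cartilage, had 6.19 with OGE and 6.54 without it in U2-OS, and 5.57 with OGE and 5.72 without it in HOS. The median OGE difference of the 11 genes was -0.10 in U2-OS and -0.14 in HOS, against 0.03 and 0.02 over all genes. SPARC and COL1A1 were lower on the same U2-OS array with OGE; the part of the cartilage markers in that was not tested.

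Of 8 fat cell markers, PPARG, the nuclear receptor that drives fat cell formation, was higher by size in U2-OS. It had 4.62 with OGE and 3.59 without it there, and 4.18 with OGE and 4.15 without it in HOS. Higher calls in U2-OS made up 1.84% of all genes. The fat cell genes FABP4 and ADIPOQ stayed between 1.23 and 2.75. CEBPA and PLIN1 of the same list were at or above the median on all 4 arrays. None of 8 skeletal muscle and 5 tendon markers was called for OGE, against 6.76% of all genes in U2-OS and 2.39% in HOS. Of 6 immune markers, LCP1 was higher by size in U2-OS, at 4.29 with OGE and 3.02 without it, against the same 1.84%. PTPRC stayed between 1.28 and 1.48, while TYROBP was at or above the median on all 4 arrays. All 5 endothelial markers were below the median on every array, as were 34.7% of all genes. Of 6 epithelial markers, KRT8 was lower in U2-OS than in HOS by size in both states, with -1.37 with OGE and -1.22 without it, and an adjusted p of 0.0503 in limma. In the same list CLDN4 was higher in U2-OS, by 1.51 with OGE, a call by size, and 0.98 without it, with an adjusted p of 0.0683 in limma. EPCAM was lower in U2-OS by size without OGE, with -1.15, and had -0.27 with OGE. Of all genes, 6.94% were called between the lines with OGE, 8.76% without it and 3.71% in both states.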
